A study of Mus musculus with 5 samples.

Results

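CD38, CD39, CD73 and the A2A adenosine receptor are proteins of the cell surface that make, or respond to, extracellular adenosine. Their genes, Cd38, Entpd1, Nt5e and Adora2a, were picked by symbol, and all 4 were found among the 23337 genes listed for each library. They were followed in tumor-infiltrating CD8+ T cells of mice under PD-L1 blockade or a control antibody. The T cells came from C57BL/6J CD45.1 OT-I mice of 6 to 12 weeks, which carry 1 transgenic T cell receptor for an ovalbumin peptide. They were stimulated through CD3 and CD28, grown with interleukin-2 for 5 to 6 days, and injected into mice bearing the ovalbumin-expressing melanoma B16-OVA, whose strain and age the labels do not give. The Control IgG group (3 libraries) received rat IgG2b against KLH and the anti-PD-L1 group (2 libraries) clone 10F.9G2, with 200 µg a mouse injected 3 and again 6 days after the T cells. Live CD8+ CD45.1+ cells were sorted on day 8, or earlier if a tumor reached 1.2 cm. Cells of several mice of a group were pooled before sorting, so each library is a pool, and all cells shared the prior culture and the transgenic receptor.

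ATP that leaves stressed or dying cells acts on P2 receptors as a danger signal. CD39 cuts ATP and ADP down to AMP, and CD73 turns AMP into adenosine. CD38 uses NAD instead, giving ADP-ribose and cyclic ADP-ribose, and opens another route to AMP and adenosine. The A2A receptor couples to the stimulatory G protein Gs, raises cyclic AMP and restrains T cell activation. CD39 and CD38 are both known as surface markers of exhausted CD8+ T cells in tumors, cells that also carry PD-1.

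Library depth ran from 9985943 to 12830485 counts assigned to genes, and all 4 genes passed the low-count filter that left 11299 genes for testing. The libraries numbered 1 of both groups stood apart, with 11696 and 11977 genes detected against 13564 to 13801 in the other 3. The fold changes of the 4 genes and the counts over gene lists are therefore given with and without them. The sorted cell type was checked on Cd8a, at 1490 to 1950 CPM per library total, and on Cd4, at 0 to 1.3 CPM. Cd8a and Ptprc were the highest of 10 CD8 T cell markers.

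Cd38 and Entpd1 had the highest levels of their 5 libraries in the same one, anti-PD-L1 replicate 1. The sequences around their annotated starts, 250 bases before to 50 after, are shown for this reason, from RefSeq on GRCm38.p6. Entpd1 has 2 annotated starts, 47404 bases apart, and counts per gene do not tell which was used. The windows are chr5:43868559-43868858 for Cd38, chr19:40612116-40612415 for the first Entpd1 start and chr19:40659520-40659819 for the second, all on the plus strand. Capitals mark matches to the motifs searched.
Cd38: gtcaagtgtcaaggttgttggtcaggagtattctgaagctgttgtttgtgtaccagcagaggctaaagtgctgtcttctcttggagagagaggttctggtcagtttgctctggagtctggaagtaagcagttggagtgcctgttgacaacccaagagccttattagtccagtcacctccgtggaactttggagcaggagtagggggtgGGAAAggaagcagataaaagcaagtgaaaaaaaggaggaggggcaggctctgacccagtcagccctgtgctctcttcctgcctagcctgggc
Entpd1, first start: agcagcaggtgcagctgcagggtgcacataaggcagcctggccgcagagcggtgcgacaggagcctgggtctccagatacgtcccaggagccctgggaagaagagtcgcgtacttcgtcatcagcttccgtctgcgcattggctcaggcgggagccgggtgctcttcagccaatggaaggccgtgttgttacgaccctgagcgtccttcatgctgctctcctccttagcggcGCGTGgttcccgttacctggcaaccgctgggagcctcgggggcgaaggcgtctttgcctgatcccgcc
Entpd1, second start: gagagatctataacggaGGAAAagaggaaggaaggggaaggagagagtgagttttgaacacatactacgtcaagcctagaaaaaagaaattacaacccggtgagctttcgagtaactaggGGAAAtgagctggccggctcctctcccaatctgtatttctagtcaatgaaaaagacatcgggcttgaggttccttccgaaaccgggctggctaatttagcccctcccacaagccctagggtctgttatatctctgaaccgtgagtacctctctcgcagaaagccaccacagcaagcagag

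The search covered both strands and used the cAMP response element TGACGTCA, the HIF core ACGTG, the AHR core GCGTG, the STAT site TTCNNNGAA, the AP-1 site TGANTCA, the NFAT core GGAAA, the NR4A site AAAGGTCA and the GC box GGGCGG. The HIF core shares 4 letters with the middle of the cAMP response element, and the windows held neither. GGAAA occurred once in the Cd38 window, 42 bases before the start. In the second Entpd1 window it occurred at 233 and 130 bases before the start. It is a common word, held by 61.3% of the 32851 promoter windows of this length. The first Entpd1 window held 1 GCGTG, 18 bases before the start, as did 32.4% of all windows. The Nt5e window, chr9:88327359-88327658, had 4 GC boxes, which 35.7% of windows hold at least once, and 1 GCGTG. Adora2a had no entry. Offsets count from the RefSeq starts. The GENCODE genes of Cd38 and Nt5e, at the coordinates given below, begin before these windows. GC content was 51.67% for Cd38, 64% and 48.67% for the Entpd1 windows and 71% for Nt5e.

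Cd38 encodes an ectoenzyme that consumes NAD. The gene lies on chromosome 5 from 43868553 to 43912375 on the plus strand (GRCm38), and no exon of another annotated gene overlaps its exons. Its level was 20.6, 15.0 and 21.4 CPM in Control IgG replicates 1, 2 and 3, and 80.5 and 24.95 CPM in anti-PD-L1 replicates 1 and 2, where CPM is the count scaled to a common library total with TMM factors. Both libraries of the anti-PD-L1 group lay above all controls, the first by a wide margin and the second narrowly. Over all genes tested, 7.74% were separated in this way. The count of 335 in anti-PD-L1 replicate 2 had a 95% Poisson interval of 22.4 to 27.8 CPM, which overlaps that of Control IgG replicate 3, 18.94 to 24.04 CPM. The group means were 18.99 ± 3.45 CPM (SD, n = 3) and 52.7 ± 39.3 CPM (SD, n = 2).

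The fitted log2 fold change of Cd38 was 1.47 ± 0.47 (SE), with a 95% interval of 0.40 to 2.55, or 2.77-fold. A log2 fold change at least as large was fitted for 1.05% of the genes tested. Cd38 did not pass edgeR's quasi-likelihood test over all genes, at an unadjusted p of 0.0134 and an adjusted p of 0.9999. That test called 0% of the 11299 genes in either direction at an adjusted p of 0.05, where 134 (1.19%) were higher and 107 (0.947%) lower at an unadjusted p under 0.05. DESeq2 called 4 genes and edgeR without a low-count filter 5, none of them one of these 4 genes. The difference in Cd38 rested largely on anti-PD-L1 replicate 1. Without it the log2 fold change was 0.39 ± 0.41. Leaving out replicate 2 gave 2.11 ± 0.34, and leaving out both libraries numbered 1 gave 0.44 ± 0.33. In these bulk samples, more Cd38 RNA per cell and more cells that carry it cannot be told apart.

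**Figure D1:**
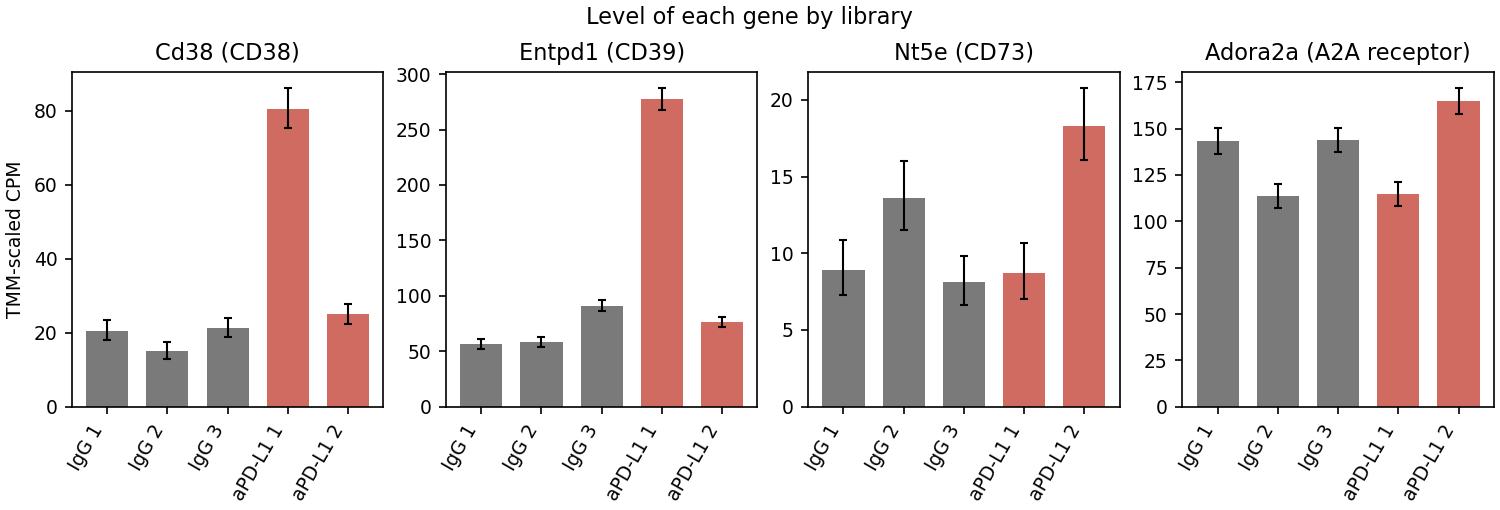
TMM-scaled CPM (vertical axis, from 0) of the 4 genes in each library, with grey bars for Control IgG (IgG) and red bars for anti-PD-L1 (aPD-L1). Error bars are 95% Poisson intervals of the count, which cover counting error only. Cd38 and Entpd1 stand at 80.5 and 277 CPM in anti-PD-L1 replicate 1, while Nt5e and Adora2a are highest in anti-PD-L1 replicate 2, at 18.3 and 165 CPM.

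Entpd1 encodes CD39, the enzyme that degrades ATP and ADP outside the cell. It lies on chromosome 19 from 40612366 to 40741602 on the plus strand, also with no shared exonic base. In the controls it stood at 56.4, 58.0 and 91.2 CPM, and after anti-PD-L1 at 277 and 76.3 CPM. The first anti-PD-L1 library was above every control, and the second lay between Control IgG replicates 2 and 3, so the groups overlapped. The means were 68.5 ± 19.6 CPM (SD, n = 3) and 177 ± 142 CPM (SD, n = 2). The log2 fold change was 1.37 ± 0.49 (SE), with a 95% interval of 0.24 to 2.49, at an unadjusted p of 0.0234 and an edgeR adjusted p of 0.9999. It came to 0.15 ± 0.38 without anti-PD-L1 replicate 1, 2.03 ± 0.35 without replicate 2, and 0.02 ± 0.30 without both libraries numbered 1.

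Set against the control mean, Cd38 was 4.24 times and Entpd1 4.05 times as high in anti-PD-L1 replicate 1. In replicate 2 the same values were 1.31 and 1.11. Counts of Cd38 per count of Entpd1 were 0.365, 0.260 and 0.235 in the controls and 0.291 and 0.328 after anti-PD-L1, so this ratio stayed inside the control range in both treated libraries. The mean log2 ratio was 0.13 higher after anti-PD-L1 (exact permutation test over the 5 libraries, two-sided, p = 0.6, where the smallest possible p is 0.2). The 2 permutation tests on ratios in this comparison could not reach 0.05 in this design.

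**Figure D2:**
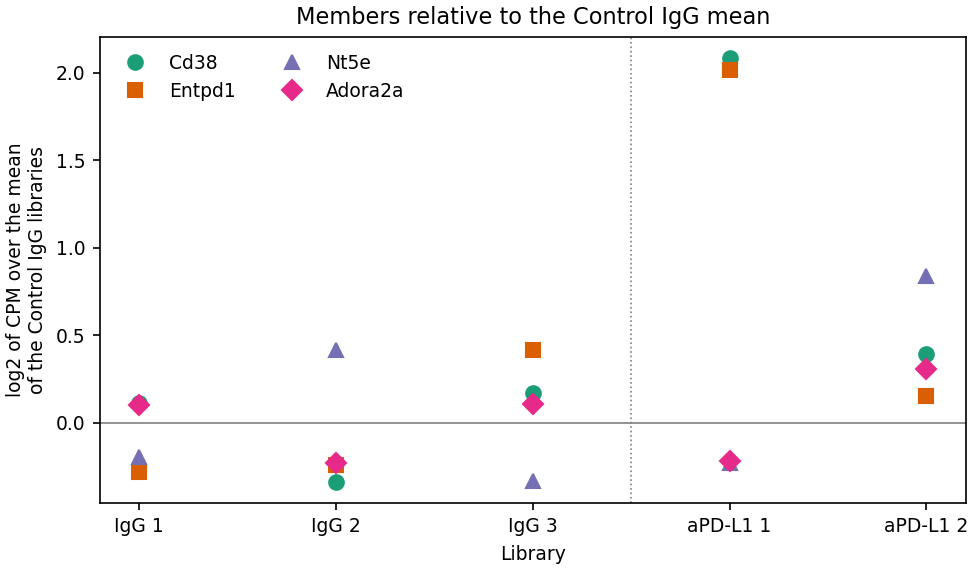
Log2 of each gene's CPM over the mean of the 3 Control IgG libraries (vertical axis), by library, with controls left of the dotted line. Cd38 and Entpd1 sit together at 2.08 and 2.02 in anti-PD-L1 replicate 1, where Nt5e and Adora2a are at -0.23 and -0.22.

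Nt5e encodes CD73, the GPI-anchored enzyme that makes adenosine from AMP. It lies on chromosome 9 from 88327197 to 88372092 on the plus strand. Its level was low throughout, at 8.94, 13.6 and 8.12 CPM in the controls and 8.71 and 18.3 CPM after anti-PD-L1. The anti-PD-L1 libraries differed from each other in the opposite order to Cd38 and Entpd1, with replicate 1 inside the control range and replicate 2 above it. The log2 fold change was 0.40 ± 0.46 (SE), with a 95% interval of -0.66 to 1.47 and an edgeR adjusted p of 0.9999. It came to -0.21 ± 0.55 with anti-PD-L1 replicate 2 left out, 0.84 ± 0.48 without replicate 1 and 0.75 ± 0.37 without both libraries numbered 1. Nt5e had 94 to 246 counts per library, and its direction depended on which anti-PD-L1 library was used.

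Because CD73 uses the AMP that CD39 makes, the balance of both genes was followed within each library. There were 6.28, 4.24 and 11.2 Entpd1 counts per Nt5e count in the controls, not corrected for gene length, and 31.7 and 4.16 after anti-PD-L1. The highest and the lowest of the 5 ratios were thus the 2 anti-PD-L1 libraries. The mean log2 ratio was 2.74 ± 0.70 (SD, n = 3) in controls and 3.52 ± 2.07 (SD, n = 2) after anti-PD-L1, a difference of 0.78 (exact permutation test, two-sided, p = 0.8). This difference changed sign, to -0.68, when anti-PD-L1 replicate 1 was left out and to -0.73 without both libraries numbered 1.

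Adora2a encodes the A2A receptor and lies on chromosome 10 from 75316877 to 75334784 on the plus strand. It stood at 143, 114 and 144 CPM in the controls and at 114.5 and 165 CPM after anti-PD-L1. Anti-PD-L1 replicate 1 was at the bottom of the control range and replicate 2 above it. The means, 133.5 ± 17.2 CPM (SD, n = 3) and 139.7 ± 35.5 CPM (SD, n = 2), differed by less than the spread between libraries. The log2 fold change was 0.07 ± 0.26 (SE), with a 95% interval of -0.54 to 0.67 and an edgeR adjusted p of 0.9999. Its sign turned with the libraries used, from -0.20 ± 0.30 without anti-PD-L1 replicate 2, and -0.04 ± 0.33 without Control IgG replicate 2, to 0.34 ± 0.25 without both libraries numbered 1.

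**Figure D3:**
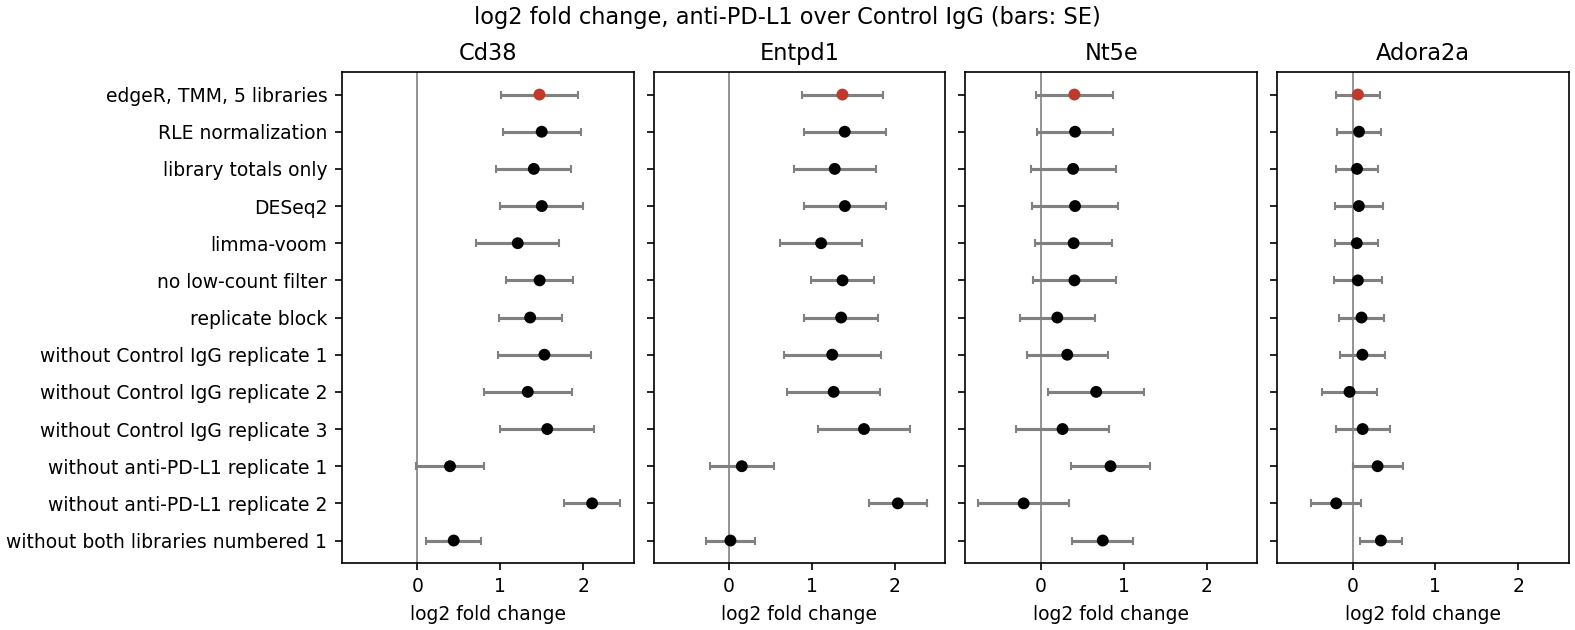
Log2 fold change of anti-PD-L1 over Control IgG (horizontal axis) for each of the 4 genes, with bars for the SE, in the fit on all 5 libraries (red) and under each alternative (black). Cd38 and Entpd1 come close to 0 only where anti-PD-L1 replicate 1 is left out, at 0.39 and 0.15, or both libraries numbered 1, at 0.44 and 0.02.

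Per kilobase of annotated exon, which allows levels to be compared between genes, Adora2a was the highest of the 4 in controls, at 43.6 ± 5.61 CPM per kilobase (SD, n = 3). Entpd1 followed at 12.3 ± 3.52, Cd38 at 4.88 ± 0.89 and Nt5e at 1.19 ± 0.35 CPM per kilobase (SD, n = 3). No 2 neighbours in this order overlapped between control libraries. The order was the same in anti-PD-L1 replicate 2. In anti-PD-L1 replicate 1, Entpd1 stood at 49.7 CPM per kilobase and Adora2a at 37.4, so the first 2 places were exchanged there. Among the genes tested, the mean level per kilobase put Adora2a at percentile 88.8, Entpd1 at 78.2, Cd38 at 60.4 and Nt5e at 22.8. With the longest transcript as the length, Nt5e came to 2.56 CPM per kilobase in controls and the order held.

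The A2A receptor gene was by far the highest of the adenosine receptor genes. Adora1 had 0 counts in every library, which allows at most 0.28 CPM in any of them, and Adora3, the A3 receptor, had 0 to 4 counts. Adora2b, the low-affinity A2B receptor that also couples to Gs, had 0, 24 and 24 counts in the controls and 75 and 61 after anti-PD-L1. The groups did not overlap, a separation in this direction seen for 7.74% of all genes tested. The 0 in Control IgG replicate 1 allows up to 0.268 CPM. Its fitted log2 fold change was 2.07 ± 1.22 (SE), at an unadjusted p of 0.127 and an edgeR adjusted p of 0.9999, and 1.14 ± 0.58 without both libraries numbered 1. Adora2b reached 3.77 CPM per kilobase at most, against at least 37.1 for Adora2a.

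**Figure D4:**
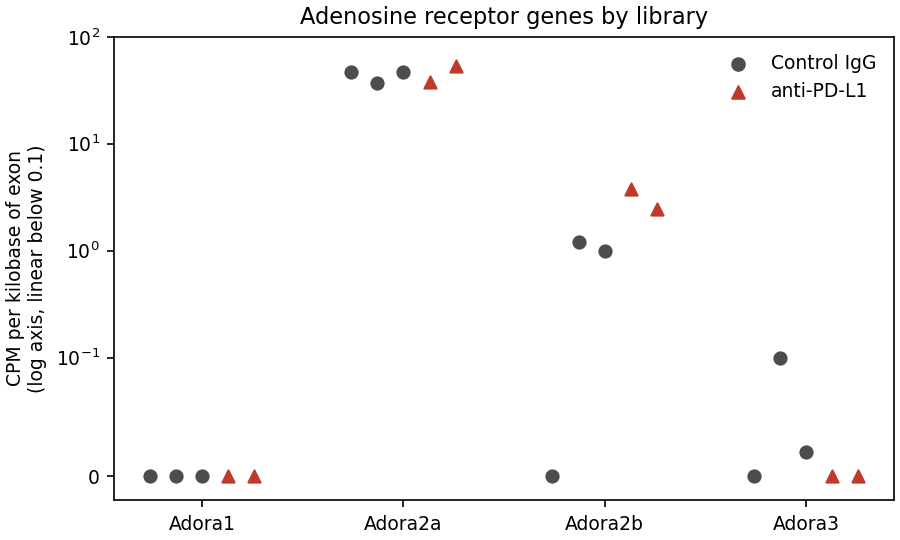
CPM per kilobase of exon (log axis, linear below 0.1) of the 4 adenosine receptor genes, with circles for Control IgG and triangles for anti-PD-L1 libraries. Adora2a lies at 37.1 to 53.8 in every library, and Adora2b at 3.77 and 2.46 after anti-PD-L1 against 0 to 1.21 in controls.

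Other surface enzymes of nucleotides and NAD were low. Of 18 such genes in the files, 8 were tested, none passed, 3 lay above 0 and 5 below, and the median log2 fold change was -0.19, against -0.02 over all genes tested. Of these 8, 3 lay below 0 without anti-PD-L1 replicate 2, 7 without replicate 1 and 6 without both libraries numbered 1. Bst1, which encodes CD157, the paralog of CD38 that lies 24566 bases before it on chromosome 5, had 0, 15 and 3 counts in controls and 17 and 3 after anti-PD-L1. Enpp1, a pyrophosphatase that also cuts ATP, stood at 9.47 to 13.6 CPM in controls and at 20.8 and 11.02 CPM after anti-PD-L1 (0.45 ± 0.41). Enpp4 was at 6.28 to 13.05 CPM in controls and at 5.47 and 5.44 CPM after anti-PD-L1 (-0.75 ± 0.50), and Sarm1, an NAD hydrolase that is not on the surface, had 16 to 30 counts in controls and 0 and 16 after anti-PD-L1. Entpd3 and Entpd8, the paralogs of Entpd1 that also face outward, had 0 counts in every library, and Entpd2 had 6 counts in 1 library. In CPM both anti-PD-L1 libraries lay below all controls for 2 of the 8, Enpp4 and, narrowly, Sarm1, where 9.58% of all genes did.

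The list of intracellular nucleotidases showed no common direction either. Of 12 tested, 6 lay above and 6 below 0, with a median of 0.01, and 7 lay below 0 without both libraries numbered 1. Entpd6 was at 36.4 to 53.5 CPM in controls and at 19.9 and 34.9 CPM after anti-PD-L1 (-0.72 ± 0.34). Nt5c2, the cytosolic IMP and GMP nucleotidase, was at 33.6 to 45.7 CPM and then at 25.3 and 28.4 CPM (-0.58 ± 0.29). Nt5dc1 had 0.44 ± 0.34. Nt5c and Nt5c3l, of highest CPM in the list, had 0.03 ± 0.23 and -0.09 ± 0.28.

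The list of adenosine clearance, purine salvage and nucleoside transport was mostly below 0. Of 16 tested, 12 had a log2 fold change below 0, where 51.85% of all tested genes did, and the list median was -0.33 against -0.02. Both anti-PD-L1 libraries lay below all controls for 5 of the 16, namely Ada, Adk, Ahcy, Slc29a1 and Slc29a2, where 9.58% of all genes did. None passed the test. Adk, adenosine kinase, which returns adenosine to AMP inside the cell, was at 94.1, 52.6 and 56.2 CPM in controls and at 26.1 and 43.6 CPM after anti-PD-L1 (-0.95 ± 0.37), at an unadjusted p of 0.0324 and an edgeR adjusted p of 0.9999. Without both libraries numbered 1 its log2 fold change was -0.33 ± 0.29. Slc29a1, the equilibrative nucleoside transporter ENT1, was at 247 to 340 CPM in controls and at 189 and 233 CPM after anti-PD-L1 (-0.41 ± 0.26). Ahcy, which splits S-adenosylhomocysteine into adenosine and homocysteine, had -0.42 ± 0.23. Hprt, of highest CPM in the list with Slc29a1 where length is not corrected for, had -0.04 ± 0.33. Above 0 were Slc28a2, a concentrative nucleoside transporter (0.55 ± 0.43), Slc29a4 (0.88 ± 0.93), Ahcyl1 and Ahcyl2. Ada, adenosine deaminase, was low at 7.93 to 9.96 CPM in controls and at 6.39 and 7.30 CPM after anti-PD-L1. The count below 0 was 11 of 16 without both libraries numbered 1, and 10 to 13 of 16 with any 1 library left out.

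**Figure D5:**
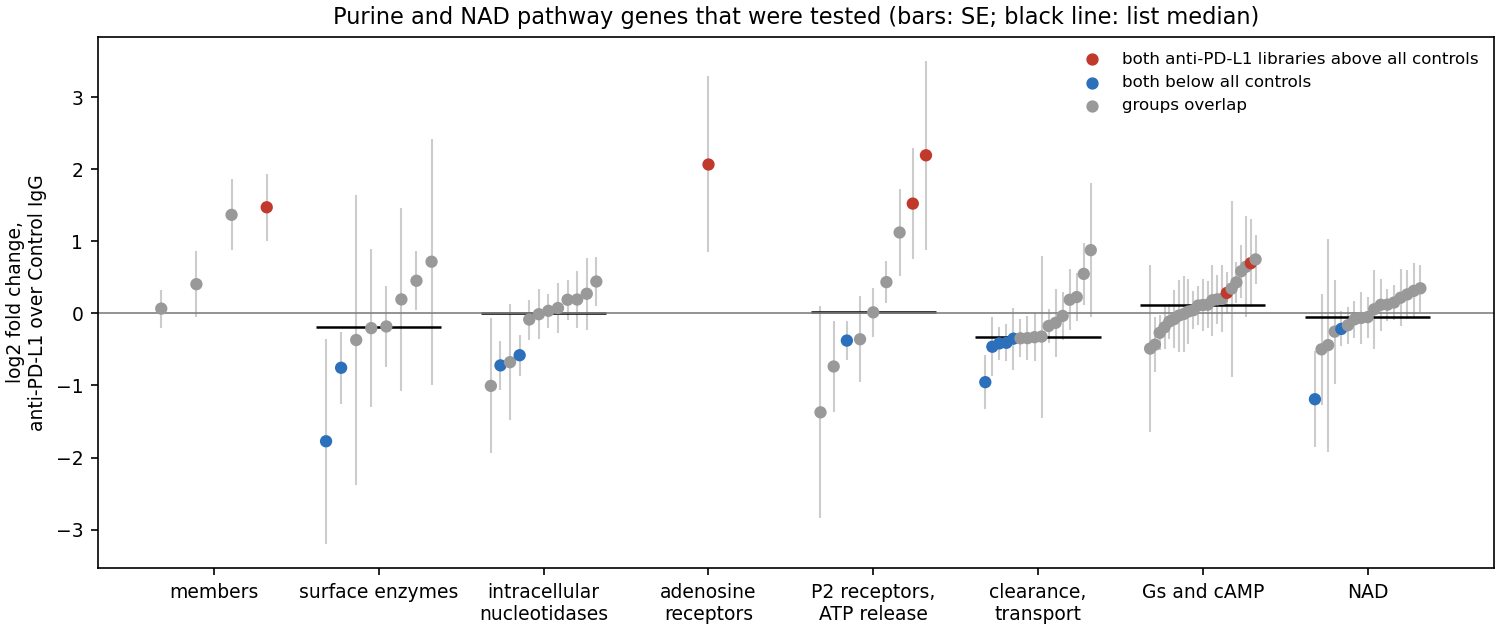
Log2 fold change of anti-PD-L1 over Control IgG (vertical axis, bars SE) of the tested genes of each list, with red for genes where both anti-PD-L1 libraries lie above all controls, blue for those below and grey for overlap. Black lines are list medians. The clearance and transport list has 5 blue points and a median of -0.33, and Cd38 is the red point among the 4 genes on the left.

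P2 receptors, which sense the ATP that CD39 removes, were tested with the ATP release channels. Of 9 tested, 5 lay above and 4 below 0, with a median of 0.01 and none past the test, and 3 lay below 0 without both libraries numbered 1. The ADP receptor genes P2ry12 and P2ry13 had 0, 11 and 25 counts and 14, 19 and 26 counts in the controls. After anti-PD-L1 they had 75 and 29 counts, and 77 and 34 counts. Both genes were higher in both anti-PD-L1 libraries, most of all in replicate 1, a separation seen for 7.74% of all genes. The log2 fold changes were 2.19 ± 1.31 and 1.52 ± 0.77, and 0.52 ± 0.77 and 0.41 ± 0.69 without both libraries numbered 1. P2ry14, a receptor for UDP-glucose, was at 3.31 to 9.88 CPM in controls and at 22.9 and 8.12 CPM after anti-PD-L1 (1.12 ± 0.60). P2rx7, the ATP-gated channel that can trigger T cell death, had at most 21 counts and was not tested. Panx1, an ATP release channel, was at 96.8 to 144 CPM in controls and at 85.0 and 90.3 CPM after anti-PD-L1 (-0.38 ± 0.27), and P2ry10, a lysophosphatidylserine receptor, had 0.43 ± 0.29.

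Below the A2A receptor, 15 of 23 tested genes of Gs and cAMP signalling lay above 0, where 48.15% of all tested genes did. The list median was 0.12 against -0.02 over all genes tested, and none passed. Without both libraries numbered 1 the count below 0 went from 8 to 5, and without anti-PD-L1 replicate 2 it went to 15. Prkacb, a catalytic subunit of protein kinase A, was at 45.0, 50.8 and 81.4 CPM in controls and at 121 and 77.9 CPM after anti-PD-L1 (0.75 ± 0.34). Prkar1a, its regulatory subunit, had 0.43 ± 0.28, the cAMP phosphodiesterase Pde4d 0.58 ± 0.37 and Gnas, which encodes the Gs alpha subunit, 0.04 ± 0.26. Gnas and Prkar1a had the highest CPM of the list.

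The genes whose pattern over the 5 libraries was most like that of a member were found by the root-mean-square difference of centred log2 CPM among 7698 genes. Cd38 was closest to Prf1, which encodes perforin (0.0802), Havcr2, which encodes Tim-3 (0.143), and Ly6g5b (0.16). Prf1 stood at 514 to 812 CPM in controls and at 2973 and 850 CPM after anti-PD-L1. Entpd1 was closest to Usp18 (0.179), Wdr95 (0.19) and Arsb (0.199), Nt5e to Smad7 (0.105), Fam193a (0.113) and Rnf149 (0.113), and Adora2a to Fam53a (0.0399), Cecr5 (0.0404) and Dnm1l (0.0411). Entpd1 itself was the 10th closest gene to Cd38, at 0.227, which 0.13% of genes reached. Over the 4 libraries without anti-PD-L1 replicate 1, the difference was 0.253 and 17.5% of genes were as close, so the likeness rested on that library. The genes named as closest to Cd38 and to Entpd1 were also all highest in anti-PD-L1 replicate 1. Their likeness was not recomputed without it.

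Of the receptors often carried together with CD39 and CD38 on exhausted cells, 8 of 9 tested lay above 0, with a median of 0.44 and none past the test. Havcr2 stood at 165, 124 and 192 CPM in controls and at 544 and 179.6 CPM after anti-PD-L1, and Cd244 at 10.99, 20.6 and 44.75 CPM and then at 105 and 21.75 CPM. Both were high in anti-PD-L1 replicate 1 and inside the control range in replicate 2, as Entpd1 was. Pdcd1 was above all controls in both (0.65 ± 0.27), as 7.74% of all genes tested were. Lag3, of highest CPM with Pdcd1, had 0.44 ± 0.32. The count below 0, 1 of 9, was 4 without anti-PD-L1 replicate 1, 3 without replicate 2, 0 to 2 without 1 of the controls, and 1 without both libraries numbered 1.

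Cells other than CD8+ T cells also carry these proteins, among them macrophages, B cells, endothelial cells and regulatory T cells for CD39, and fibroblasts for CD73. In anti-PD-L1 replicate 1, where Entpd1 and Cd38 were highest, the summed level of 12 macrophage markers was 98.1 CPM per library total, against 97.2 to 231 in controls, led by Lyz2 and Apoe. The sums were 1.55 against 4.31 to 7.63 for 9 B and plasma cell markers, led by Cd79b and Cd22, with Pax5 at 0 counts throughout. They were 31.1 against 44.4 to 63.2 for 10 endothelial markers, led by Pecam1 and Eng, with Cdh5, Kdr, Tek, Tie1 and Emcn at 0. For 8 markers of CD4 and regulatory T cells, mainly Tnfrsf18 and Ctla4, the sum was 542 against 671 to 892. CD8+ T cells can also express Tnfrsf18, Ctla4 and Pecam1, so these sums say little about other cells. Foxp3 was at 4.40 CPM in anti-PD-L1 replicate 1 and 2.52 to 6.51 in controls. None of these sums was above the control range in that library. Dendritic cell markers summed to 145 against 178 to 432, led by Cd74 and H2-Ab1. The 6 neutrophil markers, led by Cxcr2 and Mmp9, summed to 10.9 against 6.78 to 12.9. Single markers of these lists did not all follow their sums. Above the control range in anti-PD-L1 replicate 1 were Xcr1, at 18.1 against 4.84 to 5.44 CPM, and Mmp9, at 7.43 against 0.649 to 4.44. So were Cd14, at 3.45 against 0.401 to 2.42, and Zbtb7b, at 6.04 against 2.9 to 5.81. Csf3r (1.3 against 0.244 to 0.901) and S100a8 (3 counts against 0) were too. The rest lay inside or below it.

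The sum of 10 natural killer cell markers was higher, at 1230 and 832 CPM after anti-PD-L1 against 269 to 673 in controls. Gzma made up most of it, at 973 and 685 against 118 to 550 CPM, followed by Klre1 at 202 and 83.5 against 56.0 to 93.8 CPM. CD8+ T cells also express both genes. The defining marker Ncr1 had 0 to 3 counts per library, and Klra8 and Klra4 had 0. Fibroblast markers summed to 376 and 305 against 235 to 277 CPM, nearly all from Thy1, a T cell gene as well. Sparc, next in the list, had 37 counts in Control IgG replicate 2 and 0 elsewhere. Col3a1, Dcn and Lum were at 0 and Col1a1 at most at 1.69 CPM. Melanoma markers, led by Pmel and Dct, summed to 7.02, 397 and 125 CPM in the controls and 51.0 and 137 CPM after anti-PD-L1. Nt5e was highest in the library with 137, at 18.3 CPM, and next in that with 397, at 13.6 CPM. It was lowest in the library with 125, at 8.12 CPM, and stood at 8.94 CPM in that with 7.02 and 8.71 CPM in that with 51.0. The part of tumor RNA in its level was not tested.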

How the data were processed

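Poly(A) RNA of 5000 to 30000 sorted cells per pool was amplified by a modified Smart-seq2 protocol and tagmented, per the labels' protocols. Strand and single molecules are not marked, and intervals cover counting error only. The deposited values are raw read counts per gene symbol. The submitters' processing notes name TopHat, HTSeq and mm10. Not given in the sources used here are versions, the gene annotation and the handling of strand and of multiply mapped reads. Counter lines were left out: reads without a feature made up 7.46% to 15.2% of all counts, and ambiguous reads 1.38% to 1.51%. No library was a copy of another (chi-square per degree of freedom 20.8 to 102, over genes with at least 10 counts in both).

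Genes were tested on the counts in edgeR 4.0.16 (R 4.3.3) with TMM, filterByExpr defaults (minimum count 10, total 15), the quasi-likelihood F-test, two-sided, and Benjamini-Hochberg adjustment over 11299 genes, threshold 0.05. Fold changes in parentheses are log2 ± SE from this fit. The SE is the log2 fold change over the square root of F. Marker levels are CPM by library total. A floor of 3 counts lay at 0.223 to 0.28 CPM on the TMM scale. Log2 CPM used a prior count of 2, and ratios one of 0.5. Exon lengths and coordinates come from GENCODE vM21 (GRCm38), to which 22816 of 23337 symbols matched, and 3 listed symbols were not matched to the files. The fit was tested on simulated data. Alternatives used RLE scaling, library totals, DESeq2 1.42.0, limma-voom (limma 3.58.1), no filter, a replicate block, and fits without single libraries or both numbered 1. Nothing says that pools came from separate cohorts, and a p-value then reflects only the spread between pools, which may be technical.

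The 4 genes and all lists were chosen with earlier results of these data known. Named are the members, and per pathway list the 3 tested genes of smallest p and the 2 of highest CPM, not corrected for length, with the 3 most similar genes per member (mean log2 CPM of at least 3, predicted gene models passed over) and the 2 highest genes per marker list. Other names (Bst1, Entpd2, Entpd3, Entpd8, Adora1, P2rx7, Ada, Ahr, Slc28a2, Slc29a2, Slc29a4, Ahcyl1, Ahcyl2, Foxp3, Cd4, Ncr1, Col1a1, Xcr1, Cd14, Zbtb7b, Csf3r, S100a8 and marker genes at 0) were chosen after their values were seen.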

Additional observations from a re-analysis of the deposited data

How the results depend on the processing

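All 4 genes stayed short of the threshold in every alternative run, with adjusted p-values of 0.2396 to 0.9999 for Cd38 and Entpd1, and Cd38 and Entpd1 stayed above 0. With 1 library left out, the log2 fold change ran from 0.39 to 2.11 for Cd38, 0.15 to 2.03 for Entpd1, -0.21 to 0.84 for Nt5e and -0.20 to 0.30 for Adora2a. The difference in the log2 Entpd1 to Nt5e ratio ran from -0.68 to 2.245, and was -0.73 without both libraries numbered 1. The count of called genes, 0 in the edgeR fit, was 4 in DESeq2, 5 without the low-count filter and 1 without both libraries numbered 1. A fit on a single anti-PD-L1 library assumes it to vary like the controls. Deviations of same-numbered libraries had correlations of 0.331 for those numbered 1 and 0.374 for those numbered 2. Taken from group means, deviations of the 2 anti-PD-L1 libraries mirror each other, so these correlations are not independent. Differently numbered libraries are not given for comparison, so the correlations cannot show pairing. By chi-square per degree of freedom, the libraries numbered 1 were the least alike of all pairs, at 102. The labels tie same-numbered libraries by number only. With the replicate block the log2 fold changes were 1.36 for Cd38, 1.35 for Entpd1, 0.20 for Nt5e and 0.11 for Adora2a. The block fit called 0 genes, with 605 in place of 241 at an unadjusted p under 0.05. Control IgG replicate 3 has no same-numbered partner there and adds nothing to the treatment effect. The 605 does not show that the pairs are real. Levels per kilobase depend on the length used: with the longest transcript, controls came to 5.81 for Cd38, 16.2 for Entpd1, 2.56 for Nt5e and 51.4 for Adora2a. The scalings moved the median of all genes between -0.05 and 0 on the log2 scale. The causes were not tested.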

Other observations

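Intracellular NAD, the substrate of CD38, is made and used by a separate set of enzymes. Of 17 tested genes, 8 lay above and 9 below 0 after anti-PD-L1, with a median log2 fold change of -0.05 and none past edgeR's test. Without both libraries numbered 1, 9 lay below 0. Nmnat3, an NMN adenylyltransferase of mitochondria, was at 11.5, 8.12 and 11.9 CPM in controls and at 1.57 and 7.60 CPM after anti-PD-L1 (-1.19 ± 0.67). Parp2 had -0.22 ± 0.24 and Parp9, an interferon-induced member of the PARP family, 0.35 ± 0.33. Nadk, the NAD kinase, and Sirt7, a nuclear NAD-dependent deacylase, had the highest CPM of the list, with -0.05 ± 0.28 and 0.12 ± 0.22.

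Of 12 tested factors known to act on the transcription of the ectoenzyme and receptor genes, 6 lay above and 6 below 0. Stat3 was at 499, 436 and 592 CPM in controls and at 609 and 677 CPM after anti-PD-L1 (0.34 ± 0.24), and Hif1a, of highest CPM with Stat3, had 0.14 ± 0.23. Rarg, a retinoic acid receptor, had 54, 30 and 36 counts in controls and 14 and 12 after anti-PD-L1 (-1.65 ± 0.83). Epas1, which encodes HIF-2 alpha, had 0, 51 and 17 counts in controls and 52 and 82 after anti-PD-L1 (1.43 ± 1.30). Ahr had at most 39 counts in any library. The count below 0 was 1 of 12 without anti-PD-L1 replicate 1 and also without both libraries numbered 1, and 8 of 12 without replicate 2.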
